A study of Schizosaccharomyces pombe with 49 samples.

Results

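The mitochondrial genome of fission yeast was read through the 36 gene IDs that begin with SPMIT, out of 7015 feature IDs shared by all count tables. They comprise 11 numbered IDs, SPMIT.01 to SPMIT.11, and 25 tRNA IDs that carry an amino acid in the name, such as SPMITTRNALEU.02. RefSeq (assembly ASM294v3) lists 11 protein-coding genes, 25 tRNA genes, 2 ribosomal RNA genes and 1 RNase P RNA gene on the mitochondrial chromosome, and the number of tRNA genes per amino acid equals that of the tRNA IDs for 20 of 20 amino acids. No ribosomal RNA or RNase P RNA carries an SPMIT ID in the count tables. Neither the count tables nor the reference table pairs SPMIT.01 to SPMIT.11 with a gene name, so these members are given by ID, with no role and no sequence for a single ID.

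The mitochondrial chromosome of this yeast encodes core subunits of the cytochrome bc1 complex (cob), of cytochrome c oxidase (cox1, cox2, cox3) and of the ATP synthase (atp6, atp8, atp9), a ribosomal protein (rps3), and reading frames inside introns of cox1 and cob, per RefSeq. Mitochondrial transcripts are made by a dedicated RNA polymerase as long precursors, and tRNAs between the coding genes mark where the precursors are cut. The remaining subunits of these complexes, and the proteins that transcribe, process and translate mitochondrial RNA, are encoded in the nucleus and imported. Levels below are in CPM, reads of an ID per 1e6 gene reads of the library. CPM is not corrected for gene length, so levels are compared between libraries and not between IDs.

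RNA was sequenced from bulk cells in 46 libraries with gene counts, of 49 samples. A course of 31 libraries followed diploid pat1-as2 cells at 26C, in which the kinase Pat1 can be blocked by the inhibitor 1-NM-PP1 to start meiosis. Wild type (WT), red1∆ and pir1∆ diploids, all carrying pat1-as2, were taken from growth in rich YEA medium, after 4 h in nitrogen-free EMM-N medium, and hourly from 1 to 8 h in EMM with 25 µM 1-NM-PP1. Each strain and time had 1 library, except that vegetative WT had 2. Red1 and Pir1 (gene symbol iss10) belong to the nuclear machinery that eliminates meiotic transcripts during growth. Of h90 cells grown in YEA at 30C there were 8 libraries. They were WT, tor2-ts6 (a temperature-sensitive allele of the TOR kinase Tor2), and 3 strains that add ubi4∆, cul4∆ or ddb1∆ to that allele, all 3 of these once with pir1∆ and once without. Another 4 libraries were h90 cells expressing GFP-Pir1 in YEA at 30C, or GFP-Pir1, GFP-Pir1-SD or GFP-Pir1-SA in EMM at 18C. The last 3 were mat1Msmt0 cells at 29C, namely WT in EMM and pir1∆ in YEA and in EMM.

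Gene reads ran from 10.2 to 56.5 in units of 1e6 per library. The red1 gene stood at 2.88 to 18.8 CPM in the 10 red1∆ libraries and at 67.3 to 214 CPM in the other 21 libraries of the course, and iss10 stood at 0.678 to 17 CPM in 15 pir1∆ libraries and at 25.4 to 145 CPM in the other 31. The libraries fell into 2 strand patterns. In 20 libraries of the course (WT from vegetative library 1 onward and all red1∆) 5.55 to 8.81% of SPMIT reads lay on the other strand, while in the remaining 26 libraries the share was 0.0282 to 0.694%. Those 26 include vegetative WT library 2 and all 10 pir1∆ libraries of the course. Per the labels' protocols, 1 of 2 library kits was used, with no kit tied to a sample. Between WT and pir1∆ over the course, the strand pattern and the strain therefore cannot be told apart, except in the comparison with vegetative WT library 2. Libraries are not stated to come from separate cultures, so the p-values below measure the spread between these libraries only.

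Mitochondrial transcripts became a larger part of the RNA late in meiosis in each of the 3 strains. In WT the SPMIT genes took 4.13% of gene reads in vegetative library 1 and 2.39% in library 2, then 6.35% after starvation. The WT share was 5.47% at 1 h, 5.34% at 2 h, 5.07% at 3 h and 4.86% at 4 h, and then 6.28% at 5 h, 8.30% at 6 h, 10.5% at 7 h and 13.9% at 8 h. Its lowest meiotic value lay at 4 h and its highest at 8 h, 2.86 times as high. In red1∆ the share was 3.12% in vegetative cells, 5.27% after starvation and 4.27, 4.34, 4.35, 4.22, 4.41, 4.84, 5.66 and 6.28% from 1 to 8 h. In pir1∆ it was 2.62% in vegetative cells, 4.44% after starvation and 3.72, 3.86, 4.14, 4.76, 5.62, 6.77, 7.90 and 9.01% from 1 to 8 h. The share at 8 h was 1.49 times that at 4 h in red1∆ and 1.89 times in pir1∆. The only replicate pair, vegetative WT, differed by 1.73 times, and those libraries differ in strand pattern. Reads that overlap several genes are dropped from gene reads, and their part of mapped reads in WT rose from 15.8% in vegetative library 1 to 30.9% at 8 h. The 95% Wilson interval of a library's share reached at most 0.0151 percentage points to either side, which covers counting error only. Taken per mapped read, the WT share was 3.07% in vegetative library 1, 3.21% at 4 h and 8.78% at 8 h.

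**Figure D1:**
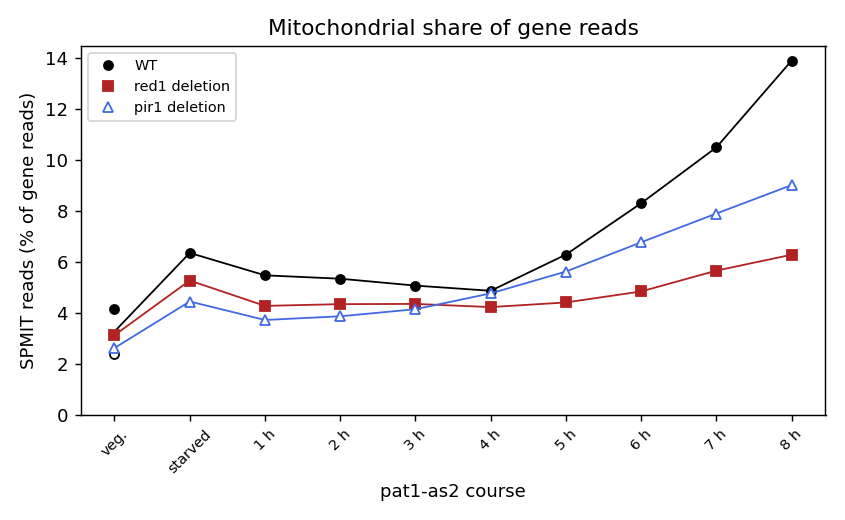
Share of gene reads in the 36 SPMIT genes (%, y axis) at each time of the pat1-as2 course (x axis), 1 point per library, with lines through the mean of each strain. Open symbols are libraries with few SPMIT reads on the other strand (pir1∆ and vegetative WT library 2). The share is highest at 8 h in each strain, at 13.9% in WT, 9.01% in pir1∆ and 6.28% in red1∆.

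Within the course, the stages were compared in edgeR with the strain as a block, over all 31 libraries (quasi-likelihood test, Benjamini-Hochberg adjustment over 5687 genes, threshold 0.05). The 2 or 3 hours of a stage within a strain also enter its spread, and hours of 1 strain are not stated to be separate cultures, so the p-values of these stage comparisons may be too small. From 1-3 h to 4-6 h, 17 of 36 members rose, 9 of 11 numbered IDs and 8 of 25 tRNA IDs, where 22% of all genes rose. None fell, by edgeR or by DESeq2, and 0 members had an unadjusted p under 0.05 in that direction, where 21.6% of all genes fell. Among the numbered IDs the log2 change ran from 0.28 (SPMIT.02, adjusted p = 0.164, edgeR) to 0.78 (SPMIT.09, adjusted p = 0.11). SPMIT.10 rose by 0.75 ± 0.17 (SE, adjusted p = 0.00124, edgeR) and SPMIT.06 by 0.67 ± 0.19 (adjusted p = 0.00583). The median was 0.57 over the numbered IDs and 0.16 over the tRNA IDs, against 0.02 over all genes tested. Scaled by library totals alone, the median of all genes moved to -0.29, 1 member rose past the threshold, and of all genes 611 rose and 2282 fell, against 1251 and 1228 in the TMM-scaled fit. The count was 5 without the WT libraries, 6 without pir1∆ and 13 without red1∆.

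The rise continued from 4-6 h to 7-8 h, where 11 of 36 members passed the test, 6 numbered IDs and 5 tRNA IDs, and 1.74% of all genes rose. None fell, by edgeR or by DESeq2 and at an unadjusted p under 0.05 (0 members), while 0.404% of all genes fell. SPMIT.06 rose by 1.03 ± 0.21 on the log2 scale (SE, adjusted p = 0.0202, edgeR). SPMIT.01, SPMIT.04, SPMIT.05, SPMIT.07 and SPMIT.11 rose by 0.62 to 0.81, and the other 5 numbered IDs had log2 changes from 0.32 (SPMIT.02) to 1.07 (SPMIT.09) that did not pass. The tRNA IDs that rose were SPMITTRNAASN.01, SPMITTRNAASP.01, SPMITTRNAGLY.01, SPMITTRNALYS.01 and SPMITTRNASER.01, by 0.98 to 1.31. Scaled by library totals, 12 members rose, and of all genes 138 rose and 920 fell, against 99 and 23. DESeq2 called 22 members, the strand columns 2, and edgeR without the WT or without the pir1∆ libraries 0 members and 0 of all genes. All 11 numbered IDs had a higher CPM at 8 h than at 4 h in each of the 3 strains, with a median ratio of 2.3 in WT, 1.44 in red1∆ and 1.57 in pir1∆.

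Earlier in the course fewer members were called by edgeR, in comparisons with fewer libraries. The mitochondrial share after starvation was 1.95 times the vegetative one in WT (mean of both vegetative libraries), 1.69 times in red1∆ and 1.70 times in pir1∆. After nitrogen starvation, 7 of 36 members stood higher than in vegetative diploids and 1 lower, where 20.5% and 19.3% of all genes did. The numbered IDs were SPMIT.01 (log2 change 0.70 ± 0.26 SE, adjusted p = 0.0299, edgeR), SPMIT.03 (0.78 ± 0.26, adjusted p = 0.0176) and SPMIT.11 (0.72 ± 0.29, adjusted p = 0.0496). The tRNA IDs SPMITTRNAGLY.01, SPMITTRNAMET.01, SPMITTRNASER.01 and SPMITTRNATHR.01 rose and SPMITTRNATRP.01 fell. The number of members that rose was 1 without red1∆, 3 without pir1∆ and 5 without WT, and the number that fell was 0, 0 and 2. The median log2 change was 0.56 over the numbered IDs and 0.12 over all genes. Scaled by library totals, which moved the median of all genes to 0.44, 16 members rose and 0 fell, and of all genes 1837 rose and 664 fell, against 1164 and 1098. From starved cells to 1-3 h none of the 36 members was called by edgeR, where 3.94% of all genes rose and 5.8% fell. There, 5 members had an unadjusted p under 0.05, all with negative log2 changes, and DESeq2 called 1. Without the WT libraries 4 members fell.

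SPMIT.06 held 21.2 to 40.4% of SPMIT reads over the 46 libraries. In WT it stood at 13669 and 5944 CPM in the 2 vegetative libraries and at 19192 CPM after starvation. It was at 18937, 16748, 16516 and 15984 CPM from 1 to 4 h, and at 18494, 22539, 35416 and 56184 CPM from 5 to 8 h. After starvation it was 1.96 times its vegetative mean, it lay between 15984 and 19192 CPM from then to 5 h, and it was 3.52 times as high at 8 h as at 4 h, a ratio exceeded among the numbered IDs by that of SPMIT.09 (3.72). In red1∆ it was 7049 CPM in vegetative cells, 11169 CPM after starvation, and 10580, 11522, 12433, 12717, 14074, 15527, 17932 and 18711 CPM from 1 to 8 h. In pir1∆ it was 5846 CPM in vegetative cells, 10412 CPM after starvation, and 9509, 10201, 10439, 12129, 15199, 20174, 25514 and 31049 CPM from 1 to 8 h. At 8 h the 3 strains were far apart, and SPMIT.06 made up 40.4% of SPMIT reads in WT, 29.8% in red1∆ and 34.5% in pir1∆.

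**Figure D2:**
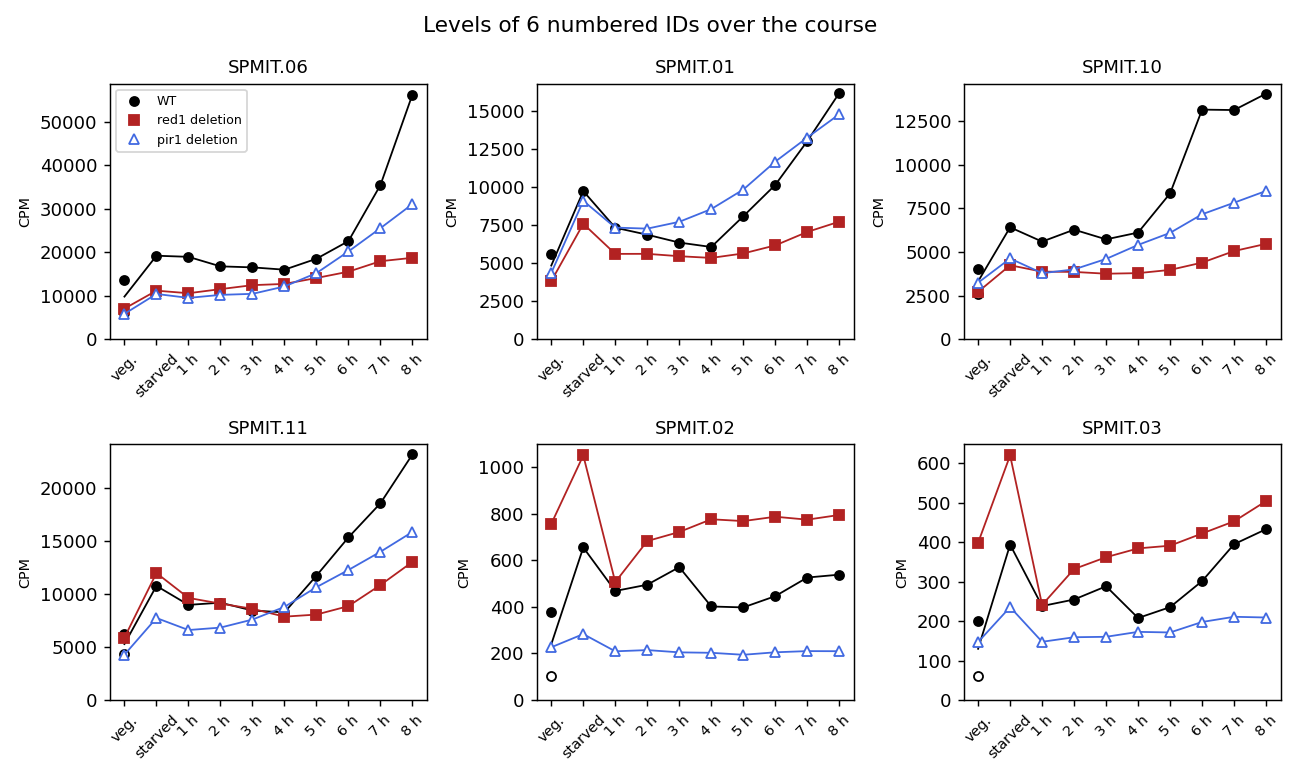
Level in CPM (y axis, each from 0) of 6 numbered IDs over the course (x axis), 1 point per library with lines through strain means and open symbols as for the share. SPMIT.06, SPMIT.01, SPMIT.10 and SPMIT.11 are highest at 8 h in WT, while SPMIT.02 and SPMIT.03 stand highest in red1∆.

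SPMIT.02 and SPMIT.03 had lower levels at 8 h, relative to starved cells, than SPMIT.06. In WT, SPMIT.02 stood at 376 and 103 CPM in the vegetative libraries, 655 CPM after starvation, and 468, 495, 571, 402, 398, 446, 526 and 539 CPM from 1 to 8 h. Its 8 h level was 0.822 times that of starved cells in WT, 0.757 times in red1∆ and 0.740 times in pir1∆, while that of SPMIT.06 was 2.93, 1.68 and 2.98 times. SPMIT.03 was at 199 and 60.7 CPM in the vegetative WT libraries, 393 CPM after starvation and 208 to 432 CPM from 1 to 8 h. It was lowest at 4 h and highest at 8 h of meiosis in WT, and its 8 h level was 1.1 times that of starved cells in WT, 0.813 times in red1∆ and 0.888 times in pir1∆. SPMIT.08 had ratios of 1.24, 0.864 and 1.11 in the same order, and a difference in course between IDs was not tested. Between the vegetative WT libraries these IDs differed by 3.66 and 3.28 times, more than the other numbered IDs apart from SPMIT.09.

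Deletion of red1 was accompanied by a lower mitochondrial share at 10 of 10 times, with vegetative WT taken as the mean of its libraries. Vegetative red1∆ (3.12%) lay below WT library 1 but above WT library 2 (2.39%). The mean log2 difference from WT was -0.47 ± 0.35 (SD over 10 times), a ratio of 0.720 (exact two-sided sign-flip permutation test, p = 0.00195, the smallest that 10 times allow). The test takes the 10 times as separate, and they are not stated to be separate cultures. Its p-values may therefore be too small. The difference was -0.07 in vegetative cells (against the mean of both WT libraries), -0.20 to -0.36 from starvation to 4 h, and -0.51, -0.78, -0.89 and -1.15 at 5, 6, 7 and 8 h. Without SPMIT.06 the mean was -0.39, with 9 of 10 times lower (exact p = 0.00391). Taken per mapped read the mean was -0.42, also with 9 of 10 times lower (exact p = 0.00391, same test). Some of the 8 stage markers peaked at other times in red1∆ than in WT, and others did not. The transcript of mei4, a transcription factor of middle meiosis, peaked at 4 h in WT (733 CPM) and at 5 h in red1∆ (478 CPM), and mes1, a regulator of the second division, peaked at 4 h in WT (672 CPM) and at 6 h in red1∆ (485 CPM). The transcript of meu10, a late marker, peaked at 4 h in WT and 6 h in red1∆. That of rec8, the meiotic cohesin subunit, peaked at 1 h in WT and in starved cells in red1∆. The spo5 transcript peaked at 3 h in both strains, and mei2 and ste11 peaked in starved cells in both. The count of mde2 was 0 in every course library, so it gives no timing here. Course reads were counted without strand, which drops reads that overlap genes on opposite strands. Counted by strand, mde2 stood at 16.9 CPM in GFP-Pir1 cells in EMM. Whether its reads were dropped in the course was not tested. The part of this timing in the difference was not tested.

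Across genes, 12 of 36 members fell and 3 rose in red1∆ against WT over the course (edgeR fit of all 31 libraries with the time as a block), where 18.1% of all genes fell and 14.2% rose. The 12 were 7 numbered IDs and 5 tRNA IDs, and the 3 were tRNA IDs. SPMIT.10 fell by 1.22 ± 0.16 on the log2 scale (SE, adjusted p = 3.38e-06, edgeR) and was below WT in CPM at 10 of 10 times. Vegetative WT is here the mean of its libraries. It stood at 14070 CPM in WT and 5468 CPM in red1∆ at 8 h, and at 6415 and 4241 CPM after starvation. SPMIT.06 fell by 1.04 ± 0.18 (adjusted p = 0.000105, edgeR) and SPMIT.01 by 0.87 ± 0.15 (adjusted p = 0.000113), both below WT at 10 of 10 times. SPMIT.04, SPMIT.05, SPMIT.07 and SPMIT.11 fell by 0.49 to 0.75. The median was -0.60 over the numbered IDs and -0.35 over the tRNA IDs, against -0.02 over all genes.

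SPMIT.02 and SPMIT.03 did not share this direction. In red1∆, SPMIT.02 stood at 757 CPM in vegetative cells, 1051 CPM after starvation, and 507, 683, 722, 776, 769, 787, 775 and 795 CPM from 1 to 8 h, above WT in CPM at 10 of 10 times. The log2 change was 0.39 ± 0.16 for SPMIT.02 (adjusted p = 0.0608, edgeR) and 0.24 ± 0.15 for SPMIT.03 (adjusted p = 0.245), so neither was called. SPMIT.08 (-0.24 ± 0.12, adjusted p = 0.136) and SPMIT.09 (-0.06 ± 0.39, adjusted p = 0.928) were not called either. The tRNA IDs that rose were SPMITTRNAASN.01, SPMITTRNAGLY.01 and SPMITTRNASER.02, and those that fell were SPMITTRNAGLU.01, SPMITTRNALEU.01, SPMITTRNAMET.01, SPMITTRNAMET.02 and SPMITTRNATYR.01. Among all tRNA IDs, log2 changes ran from -1 (SPMITTRNAMET.02) to 1.42 (SPMITTRNAGLY.01, adjusted p = 3.96e-06, edgeR).

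The red1 counts moved with the scaling and with 1 library. Scaled by library totals, the median of all genes moved to 0.35, 6 members fell and 7 rose, of all genes 226 fell and 2342 rose (against 1028 and 807), and SPMIT.07 (-0.12, adjusted p = 0.487) and SPMIT.11 (-0.23, adjusted p = 0.23) were not called. Without vegetative WT library 2, whose strand pattern differs, 21 members fell. In the 20 WT and red1∆ libraries of 1 strand pattern 19 members fell and 4 rose, with SPMIT.10 at -1.25 and SPMIT.06 at -1.07, a fit added after the data were seen. The strain by phase interaction asked whether the red1 effect differs between phases. It called 0 of 36 members in edgeR (F test over 5721 genes), where 0.14% of all genes were called, while 9 members had an unadjusted p under 0.05 and DESeq2 called 4. The interaction estimates for 7-8 h were below 0 for 11 of 11 numbered IDs, from -0.86 to -2.43 on the log2 scale, with adjusted p-values from 0.232 to 0.509.

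**Figure D3:**
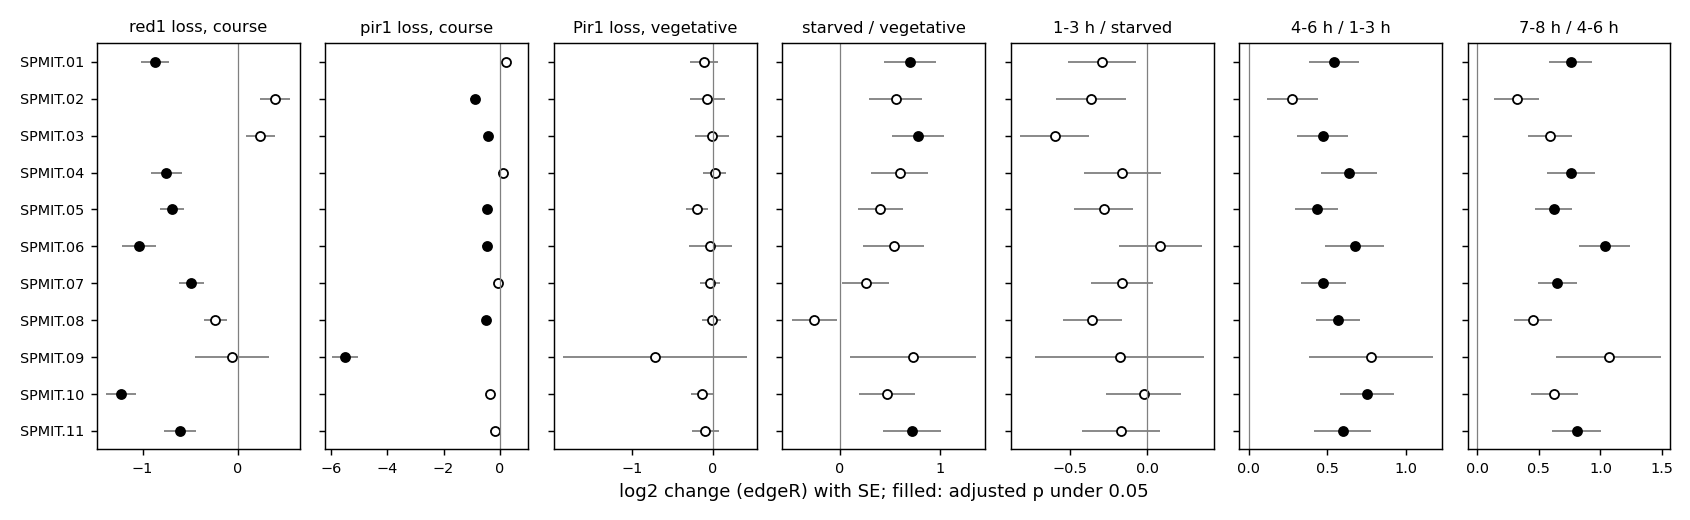
Log2 change (x axis, edgeR, bars are SE) of the 11 numbered IDs (rows) in 7 comparisons (panels with separate x scales). Filled points passed an adjusted p of 0.05: 7 IDs in the red1 comparison, 6 in the pir1 course comparison, 0 in the vegetative Pir1 comparison, and 3, 0, 9 and 6 in the stage comparisons.

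In the pir1∆ course the mitochondrial share was below that of WT at 10 of 10 times, with a mean log2 difference of -0.37 ± 0.18 (SD over 10 times). The exact two-sided sign-flip permutation test gave p = 0.00195, which may be too small for the reason given for red1∆. It used the same WT libraries as the red1∆ test, so these are not separate results. The difference was smallest at 4 h (-0.03) and largest at 8 h (-0.62). In the pair of 1 strand pattern the order was the other way, with 2.62% in vegetative pir1∆ and 2.39% in vegetative WT library 2. In pir1∆ mei4 and mes1 peaked at 1 h (781 and 578 CPM), meu10 at 2 h, and rec8 and spo5 in starved cells, each earlier than in WT, while mei2 and ste11 peaked in starved cells in both strains. The part of these peaks in the difference was not tested.

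Per gene, 25 of 36 members fell and 1 rose in pir1∆ over the course, where 24.1% of all genes fell and 17.4% rose (edgeR). These were 6 numbered IDs and 19 tRNA IDs that fell, and the tRNA ID SPMITTRNAGLU.01, which rose. SPMIT.02 fell by 0.90 ± 0.16 (adjusted p = 0.000103, edgeR), SPMIT.08 by 0.49 ± 0.12 (adjusted p = 0.00219) and SPMIT.05 by 0.48 ± 0.13 (adjusted p = 0.004). SPMIT.03 (-0.42, adjusted p = 0.0282) and SPMIT.06 (-0.48, adjusted p = 0.0314) were close to the threshold and lost the call when single times were left out. With the stranded column 4 of the called IDs were not called, SPMIT.08 at -0.18 (adjusted p = 0.176, edgeR), SPMIT.05 at -0.31 (0.0643), SPMIT.03 at -0.26 (0.136) and SPMIT.06 at -0.36 (0.141). SPMIT.01 (0.23, adjusted p = 0.218) and SPMIT.04 (0.09, adjusted p = 0.669) were not called. The pir1 strain by phase interaction called 0 of 36 members in edgeR, where 0.332% of all genes were called, while 8 members had an unadjusted p under 0.05 and DESeq2 called 5. Its estimates for 7-8 h were below 0 for 11 of 11 numbered IDs, as for red1, from -0.16 to -1.26. Their adjusted p-values ran from 0.538 to 0.951 (edgeR F test). The red1 and pir1 interactions use the same WT libraries.

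The members with the largest pir1 differences also split by strand pattern. SPMIT.09 stood at 232 to 979 CPM in the 20 libraries with more reads on the other strand and at 2.24 to 14.5 CPM in the other 26. In vegetative WT it was 232 CPM in library 1 and 2.24 CPM in library 2, and in vegetative pir1∆ 4.43 CPM. Its fitted log2 change in pir1∆ was -5.5 ± 0.47 (adjusted p = 9.7e-09, edgeR). SPMITTRNACYS.01, with a fitted change of -6.84, showed the same split, at 22.9 CPM in vegetative WT library 1, 0.118 CPM in library 2 and 0.0306 CPM in vegetative pir1∆. SPMITTRNAGLU.01, with a fitted change of 2.58, stood at 6.97, 18.6 and 25.2 CPM in those 3 libraries. Of the tRNA IDs, SPMITTRNALEU.02 had the highest median level over the 46 libraries (56.2 CPM) and SPMITTRNACYS.01 the lowest (0.256 CPM). The tRNA IDs together took 0.037 to 0.0726% of gene reads in the 20 libraries and 0.0148 to 0.0344% in the other 26. Within the 20 libraries SPMIT.09 rose late in WT, from 263 CPM at 4 h to 979 CPM at 8 h, and stood at 303 to 662 CPM in red1∆.

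**Figure D4:**
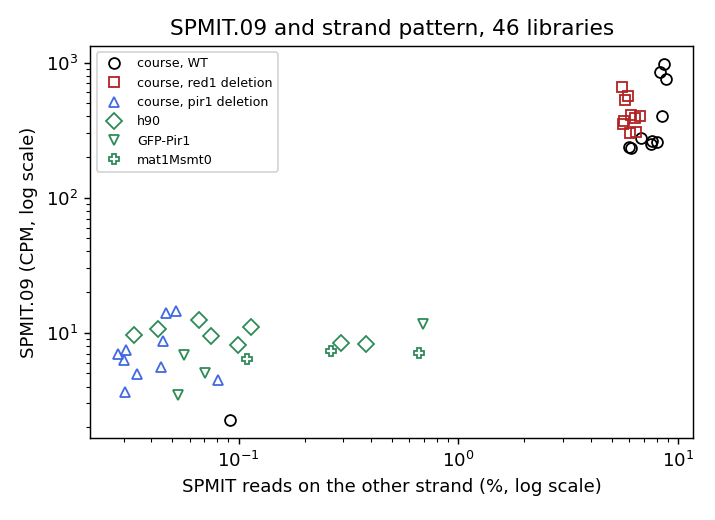
Level of SPMIT.09 (CPM, log y axis) against the share of SPMIT reads on the other strand (%, log x axis) in 46 libraries, by set and strain. The libraries form a group at 232 to 979 CPM and one at 2.24 to 14.5 CPM, and vegetative WT library 2 is in the lower group.

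In single libraries of 1 strand pattern, vegetative pir1∆ against vegetative WT library 2, 1 of 29 members had a log2 ratio of 1 or more and 0 of -1 or less, where 3.38% and 0.835% of all genes did. That member was SPMIT.03 (1.10, from 60.7 to 147 CPM). SPMIT.02 had a ratio of 0.97 and SPMIT.06 of -0.19. Pairs of single libraries, here and below, have no replicate check and no p-value.

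Loss of Pir1 in growing cells was tested over 11 libraries in 5 strain backgrounds, tor2-ts6 with ubi4∆, cul4∆ or ddb1∆, mat1Msmt0 in EMM and the vegetative diploids. The diploids include both vegetative WT libraries, and library 1 differs from pir1∆ in strand pattern. In the diploids SPMIT.09 had a log2 change of -2.28, and the part of the strand pattern in the diploid changes was not tested. None of the 34 members tested was called in either direction by edgeR or DESeq2, and 0 had an unadjusted p under 0.05, where 0.404% of all 6438 genes rose and 0.0155% fell. Apart from SPMIT.09 (-0.71 ± 1.15 SE), the log2 changes of the numbered IDs ran from -0.19 (SPMIT.05) to 0.02 (SPMIT.04), with SE of 0.12 to 0.27. The median change of the numbered IDs was 0.02 in ubi4∆, 0.05 in cul4∆, -0.17 in ddb1∆, 0.08 in the diploids and -0.14 in mat1Msmt0 cells. SPMIT.06 rose and fell between backgrounds, from 13584 to 20618 CPM with pir1∆ in cul4∆ and from 18027 to 17402 CPM in ddb1∆. The share with and without pir1∆ was 3.98 and 3.89% in ubi4∆, 5.29 and 4.59% in cul4∆, 5.21 and 5.81% in ddb1∆, and 3.23 and 3.34% in mat1Msmt0 cells in EMM. In that mat1Msmt0 pair, SPMIT reads on the other strand made up 0.109% with pir1∆ and 0.665% without. The part of this in the changes was not tested.

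In h90 cells, tor2-ts6 was set against WT. The share was 2.94% in WT and 4.72% in tor2-ts6. Relative to other genes, 6 numbered IDs were above WT and 5 below, with SPMIT.03 at a log2 ratio of 1.17 (95.9 to 284 CPM), SPMIT.02 at 0.91, SPMIT.01 at 0.80 (4386 to 9966 CPM) and SPMIT.11 at 0.74. SPMIT.08 was at -0.98 (389 to 257 CPM) and SPMIT.05 at -0.56. Past a log2 ratio of 1 lay 1 of 24 members upward (SPMIT.03) and 1 downward (SPMITTRNAMET.02), where 17.3% and 14.2% of all genes did. SPMITTRNAMET.02 had 118 reads in WT and 46 in tor2-ts6. It met the read floor for pairs only through the WT library, where it was higher. The direction of its call is therefore not a separate result. SPMIT reads on the other strand made up 0.382% in WT and 0.0334% in tor2-ts6, and the part of this in the ratios was not tested. By library totals the median of all genes was 0.38, 4 members lay past 1 upward, and of all genes 1528 were higher and 441 lower, against 976 and 803.

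Deletions in tor2-ts6 were read in the same way, by the count of members past a log2 ratio of 1. Against tor2-ts6, ubi4∆ had 0 of 24 members past it in either direction, where 1.58% of all genes were higher and 7.98% lower. In cul4∆ it was 0 of 23, where 9.01% were higher and 5.88% lower, and SPMIT.08 (0.85) and SPMIT.03 (0.71) were the furthest up. In ddb1∆ it was 0 of 24, where 5.15% were higher and 2.35% lower, and 11 of 11 numbered IDs were above 0, from 0.04 (SPMIT.02) to 0.54 (SPMIT.08). The share was 3.89% in ubi4∆, 4.59% in cul4∆ and 5.81% in ddb1∆. These 3 pairs share the tor2-ts6 library.

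**Figure D5:**
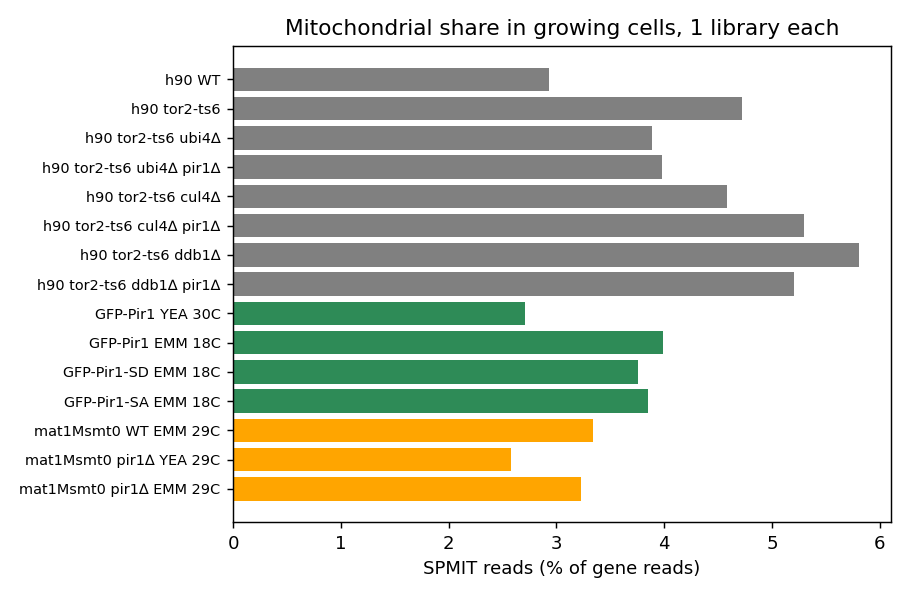
Share of gene reads in SPMIT genes (%, x axis) in 15 libraries of growing cells (rows), 1 library each with no error bar, with bars coloured by set (grey h90, green GFP-Pir1, orange mat1Msmt0). The lowest is pir1∆ in YEA (2.58%) and the highest tor2-ts6 ddb1∆ (5.81%).

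In GFP-Pir1 cells the share was 3.99% in EMM at 18C and 2.71% in YEA at 30C. All 11 numbered IDs had positive log2 ratios, from 0.05 (SPMIT.05) to 1.00 (SPMIT.09). Of 28 members 5 lay past 1 upward, SPMIT.09 and the tRNA IDs SPMITTRNAGLU.01, SPMITTRNALEU.01, SPMITTRNAMET.01 and SPMITTRNATHR.01, and 0 downward, where 11.9% and 8.17% of all genes did. Reads were few for SPMITTRNALEU.01 (50 in EMM, 9 in YEA), SPMITTRNAMET.01 (82 and 9) and SPMITTRNATHR.01 (146 and 24). These IDs met the floor of 50 reads through the EMM library alone. The EMM library had 0.694% of its SPMIT reads on the other strand and the YEA library 0.0702%, and the part of this in the ratios was not tested. SPMIT.09 stood at 5.05 CPM in YEA and 11.6 CPM in EMM, and at 3.45 and 6.84 CPM in the GFP-Pir1-SD and GFP-Pir1-SA libraries in EMM. SPMITTRNAGLU.01 was at 33.2 CPM in YEA and at 81, 74 and 77.3 CPM in those 3 EMM libraries. SPMIT.08 went from 303 to 635 CPM (0.88) and SPMIT.04 from 3594 to 7072 CPM (0.79). Medium and temperature changed together in this pair. In mat1Msmt0 pir1∆ at 29C the share was 2.58% in YEA and 3.23% in EMM. There 1 of 27 members lay past 1 upward (SPMITTRNATHR.01) and 2 downward (SPMITTRNAALA.01 and SPMITTRNAPHE.01), where 5.2% and 1.97% of all genes did. SPMITTRNATHR.01 had 20 reads in YEA and 115 in EMM, and SPMITTRNAPHE.01 had 65 in YEA and 38 in EMM. Each met the floor of 50 reads only through the library where it was higher, so the direction of these calls is not a separate result. SPMIT.08 had a ratio of -0.79 in that pair (485 to 320 CPM), SPMIT.01 of 0.49 and SPMIT.11 of 0.40.

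GFP-Pir1-SD and GFP-Pir1-SA cells in EMM at 18C were set against GFP-Pir1 cells in the same conditions. The shares were 3.76, 3.85 and 3.99%. In GFP-Pir1-SD 7 of 28 members lay past -1, SPMIT.09 and 6 tRNA IDs, and 0 past 1, where 3.58% and 0.39% of all genes did. In GFP-Pir1-SA it was 5 of 28, all tRNA IDs (SPMITTRNAARG.01, SPMITTRNALEU.01, SPMITTRNAMET.01, SPMITTRNAMET.02 and SPMITTRNATHR.01), and 0 past 1, where 0.522% and 0.286% of all genes did. The SPMIT reads on the other strand made up 0.694% in the shared GFP-Pir1 library, 0.0528% in GFP-Pir1-SD and 0.0564% in GFP-Pir1-SA. Their part in these ratios was not tested. In that shared library SPMITTRNALEU.01 had 50 reads and SPMITTRNAMET.01 had 82. They had 8 and 4 reads in GFP-Pir1-SD, and 17 and 8 in GFP-Pir1-SA. Both met the floor of 50 reads through the shared library alone. For them these pairs and the EMM against YEA pair are not separate results. Numbered IDs other than SPMIT.02, SPMIT.03, SPMIT.08 and SPMIT.09 lay within -0.11 and 0.05 in both pairs.

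For mat1Msmt0 cells in YEA at 30C, comparison tables were read in place of counts. The library that each strain is compared with is not named. In the authors' deposited table for tor2-ts6, 8 of 11 numbered IDs have a value, with a median log2 fold change of 0.38 and a range from -0.25 to 1.10. The median over all IDs of that table is 0.25. In the authors' deposited table for pir1_delta, the same number of numbered IDs have a value, with a median of 0.17 and a range from -0.30 to 1.06. The median over all IDs is 0.11 there. SPMIT.10 has the highest value in both, 1.10 in the authors' deposited table for tor2-ts6 and 1.06 in that for pir1_delta. The 2 tables share 1 of their value columns, and SPMIT.02, SPMIT.03 and SPMIT.06 are blank in both.

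Nuclear genes of oxidative phosphorylation (36 genes matched by symbol) were read from the same fits. From 1-3 h to 4-6 h, 3 of 32 tested rose and 4 fell, where 22% and 21.6% of all genes did, with a median log2 change of -0.04. Among those with the smallest p, cyt1, the cytochrome c1 subunit of the bc1 complex, fell by 1.16 ± 0.20 (SE, adjusted p = 0.000147, edgeR), and cyc1, cytochrome c, rose by 1.07 ± 0.21 (adjusted p = 0.00033). From 4-6 h to 7-8 h 0 of 32 were called by edgeR, where 1.74% of all genes rose and 0.404% fell, with a median of -0.27. In red1∆ 15 of 32 fell and none rose over the course, where 18.1% and 14.2% of all genes did, with a median of -0.29 against -0.02 over all genes. These included atp20, an ATP synthase subunit (-0.68 ± 0.08, adjusted p = 1.16e-06, edgeR), qcr8 of the bc1 complex (-1.27 ± 0.16, adjusted p = 2.08e-06) and cox9 (-0.95 ± 0.12, adjusted p = 3.48e-06). In pir1∆ 7 of 32 rose and 5 fell over the course, where 17.4% and 24.1% of all genes did, with a median of 0.09, and qcr9 (-3.69 ± 0.36, adjusted p = 4.8e-08, edgeR) and atp7 (-1.19 ± 0.11, adjusted p = 1.78e-08) were among those that fell. The strand pattern differs in that comparison.

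Nuclear genes of mitochondrial gene expression (36 matched) fell in mid-meiosis more often than they rose. From 1-3 h to 4-6 h, 17 of 35 tested fell and 2 rose, where 21.6% and 22% of all genes did, with a median log2 change of -0.28 against 0.02 over all genes. The smallest p was that of mss51 (-0.95 ± 0.16, adjusted p = 0.000139, edgeR), whose budding yeast counterpart activates translation of cox1. After starvation 6 fell and 1 rose, where 19.3% and 20.5% of all genes did, with oxa102, of the Oxa1 family of membrane insertases, at -1.03 ± 0.17 (adjusted p = 2.1e-05, edgeR). Over the course in red1∆ 4 rose and 6 fell, where 14.2% and 18.1% of all genes did, with a median of 0.01. In growing cells without Pir1, 0 genes of either nuclear list were called by edgeR, where 0.404% of all genes rose and 0.0155% fell.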

How the data were processed

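Counts of reads per gene were deposited by the authors for 46 libraries in the layout of STAR gene counting, not normalised, per the file headers. The submitters' processing notes name Trimmomatic and STAR. Their versions, the build and the annotation were not given in the sources used here. For 2 further strains the authors deposited tables with a scaled log2 fold change and a q-value (adjusted p-value) per gene, per the file headers. The 4 value columns of these tables carry no sample name and stayed out. A further mat1Msmt0 WT library was not analysed here.

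Within each of 4 sets, the larger strand column served if, in every library, it held at least 4 times the smaller one. This held for the h90, GFP-Pir1 and mat1Msmt0 sets, and the course used the column without strand (ratios from 2.19 to 7.47). That column drops reads that overlap genes on opposite strands. The 4 entries that name no gene, and 20 features present in 6 tables only, were left out. Of 7015 IDs, 97.6% matched the RefSeq table and 4409 had a symbol. None of the 36 SPMIT IDs matched.

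Models were fitted with edgeR 4.0.16 in R 4.3.3 (TMM, filterByExpr, glmQLFit, glmQLFTest), with Benjamini-Hochberg adjustment over all genes tested and a threshold of 0.05. The SE is the log2 change over the square root of F. Alternatives were DESeq2 1.42.0, its size factors in edgeR, library totals, no filter, either count column, and leaving out libraries. Pairs of libraries used log2 ratios of TMM-scaled CPM with a prior count of 2, over genes with at least 50 reads in either. Shares were tested over 10 times by exact sign flips. The fit was tested on simulated data, and that test is not used here as a measure of false calls in these libraries. No 2 libraries had equal member counts. Share intervals are Wilson 95% intervals.

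All SPMIT.nn IDs are named, tRNA IDs are named where a comparison called fewer than 6 of them or where they were the extremes, and up to 3 nuclear genes per comparison have the smallest p. SPMITTRNACYS.01 and SPMITTRNAGLU.01 were named after their values were seen. The members, lists and tests were chosen with earlier results of these data known. Expected ribosomal RNA members were absent, so the alternative without them was not run.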

Additional observations from a re-analysis of the deposited data

How the results depend on the processing

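No paired analysis was possible because no groups compared share 2 or more replicate numbers: all but vegetative WT have 1 library. The course was instead paired or blocked by time, or blocked by strain. Of 372 alternative values for numbered IDs called in a comparison, 299 kept the call, 73 lost it and 0 changed direction. These leave out the column without strand, which the course fits already use. Leaving out 1 time gave a mean log2 share difference of -0.52 to -0.40 for red1∆ and -0.40 to -0.34 for pir1∆. Leaving out 1 time, strain or vegetative WT library in turn gave these numbers of members called: 2 to 4 higher and 11 to 22 lower for red1 loss (22 without the vegetative time), 22 to 26 lower for pir1 loss, 1 to 5 higher and 0 to 2 lower after starvation, 0 to 4 lower at 1-3 h, 5 to 13 higher at 4-6 h, and 0 to 10 higher at 7-8 h. With library totals only, red1 loss had 7 higher and 6 lower, starvation 16 higher and 0 lower, 1-3 h 3 lower and 4-6 h 1 higher, where the median of all genes was 0.35, 0.44, -0.16 and -0.29 in turn. With the same scaling the pairs had 4 higher in tor2-ts6, 1 higher in cul4∆, 1 lower in pir1∆ in EMM against YEA and 3 higher in diploid pir1∆ against WT vegetative library 2. DESeq2 called 2 higher for pir1 loss, 1 lower at 1-3 h, 22 higher at 7-8 h, and 4 (red1) and 5 (pir1) members in the interactions. DESeq2 size factors in edgeR gave 1 and leaving out vegetative and starved libraries gave 5 in the pir1 interaction. The stranded column gave 5 higher for red1 loss, 4 higher for pir1 loss, 1 lower at 1-3 h, 2 higher at 7-8 h and 2 in the pir1 interaction. The 20 libraries of 1 strand pattern gave 19 lower for red1 loss. Counts over all genes that moved by over 1.5 times were, for the vegetative Pir1 comparison, 87 higher and 8 lower with DESeq2 against 26 and 1, and at 7-8 h 422 and 588 with DESeq2 against 99 and 23. The red1 and pir1 interactions called 302 and 269 genes with DESeq2 and 74 and 292 without vegetative and starved libraries, against 8 and 19. In pairs, the column without strand gave 4 lower in tor2-ts6, 1 higher in ubi4∆ and 8 lower in GFP-Pir1-SA. A floor of 10 reads gave 2 lower in cul4∆, 1 lower in ddb1∆ and 7 lower in pir1∆ in EMM against YEA, and a prior count of 10 gave 0 higher there. The causes of these moves were not tested. SPMITTRNACYS.01 had 224 to 802 reads per library in the 20 libraries of 1 strand pattern and 0 to 9 in the other 26, so its level could not be compared among those 26.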
